A study of Mus musculus with 2 samples.

Results

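IL-10, the IL-10-related cytokines and the receptor chains that receive them were examined in TR1 cells (type 1 regulatory T cells, CD4 T cells that make large amounts of IL-10) of the mouse small intestine. The set holds 10 genes: the cytokine genes Il10, Il19 and Il24, the receptor genes Il10ra, Il10rb, Il20ra, Il20rb, Il22ra1 and Il22ra2, and Bcl3, a gene that IL-10 induces. They were chosen by name because the transgene acts on this receptor, and they are 10 of the 19937 genes that the array platform's annotation names with exactly 1 symbol per probe set. The 10 genes have 13 probe sets, and a gene with several is described first by its brightest, judged on the mean of both samples.

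The impaired sample came from TR1 cells of CD4-DNIL-10R transgenic mice. These mice carry a dominant-negative IL-10 receptor alpha chain placed under Cd4 regulatory sequences, which are active mainly in T cells. The wildtype sample came from TR1 cells with an intact IL-10RA. Mice of both genotypes had received 2 intraperitoneal doses of 15 µg of anti-CD3 antibody on alternate days and were killed 4 or 48 hours after the second. The labels do not say which time belongs to which sample, so genotype and time cannot be told apart, and they give neither age, sex, pooling of mice nor the sort. There is 1 array per genotype, so the differences below carry no replicate error and no test.

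IL-10 is a dimer that binds the alpha chain of its receptor, encoded by Il10ra, and then engages the beta chain, encoded by Il10rb. The alpha chain carries the kinase JAK1 and the beta chain carries TYK2, and together they activate the transcription factor STAT3. The beta chain is shared with the IL-22 and interferon lambda receptors, whereas IL-19, IL-20 and IL-24 signal through chains encoded by Il20ra, Il20rb and Il22ra1. In the gut, the alpha chain is made mainly by T cells, B cells and myeloid cells, and Il22ra1 mainly by epithelial cells.

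All values are log2 RMA expression, a log2 scale of array brightness on which 1 unit is 2-fold, and all differences are impaired minus wildtype. Brightness depends on the probes, so levels are compared between samples and not between genes. A gene was counted only where its brighter sample reached 6.91, the median of all probe sets, called the floor here; 11124 genes did. Of the 10 members, 6 passed the floor (Il10, Il10ra, Il10rb, Il20rb, Il22ra1 and Bcl3) and 4 did not (Il19, Il24, Il20ra and Il22ra2). Of the 6, 2 differed by at least 2-fold, Il10ra and Il22ra1, and both were brighter in the impaired sample. Over all genes past the floor, 1.65% differed by at least 2-fold in either direction with 1.46% at least 2-fold brighter and 0.198% at least 2-fold dimmer in the impaired sample. The median difference was 0.13 over the 6 members and 0.0025 over all genes past the floor.

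Il10ra, the ligand-binding chain, was at 12.30 on the impaired array and at 9.92 on the wildtype array. The difference of 2.38 is a 5.20-fold brighter signal. Only 2 other genes past the floor differed by more in this direction: Wfdc17, at 10.67 on the impaired array and 7.69 on the wildtype array, and Cxcl2, a chemokine that draws neutrophils, with values of 9.54 on the impaired array and 7.14 on the wildtype array. Wildtype cells also gave a clear Il10ra signal, 3.01 log2 units over the floor. The gene has a single probe set, and whether its probes detect the transgene as well as the endogenous transcript could not be told from the files. Markers of neutrophils, which also carry this chain, were brighter in the impaired sample as well (median difference 1.80 over 10 genes past the floor). Of these 10, 3 passed the floor on the impaired array alone and could only come out brighter there. Over all 12 neutrophil genes measured the median was 1.68. The part of neutrophils in the Il10ra difference was not tested. In such bulk samples more cells of a type and more RNA per cell cannot be told apart.

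**Figure D1:**
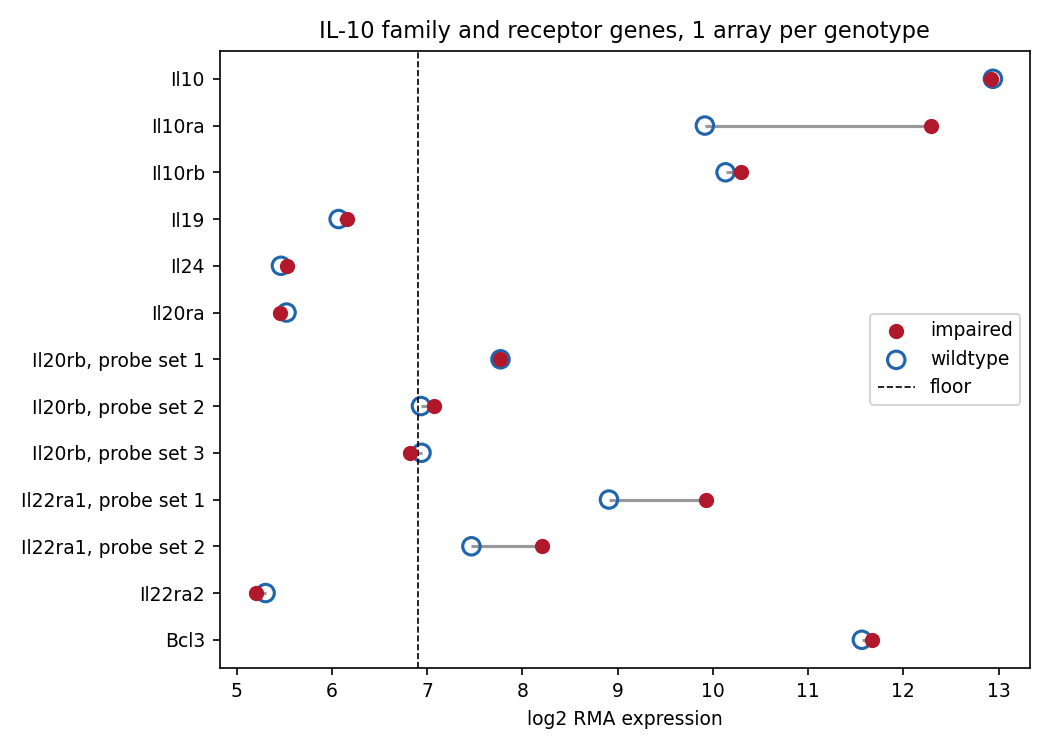
Level of each of the 13 probe sets of the 10 genes in the impaired sample (filled red) and the wildtype sample (open blue), in log2 RMA expression, with the floor as a dashed line. Il10ra stands at 12.30 on the impaired array and 9.92 on the wildtype array, both probe sets of Il22ra1 are higher in the impaired sample, and the points of the other genes lie close together.

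Genes measured beside Il10ra on chromosome 9 had smaller differences than Il10ra. So did 99.97% of all genes past the floor, so this does not set the neighbours apart. Of the 10 nearest protein-coding genes in the RefSeq annotation of GRCm38.p6 (5 on each side), 9 were measured and 3 passed the floor. Of these 3, 0 differed by 2-fold against 1.65% of all genes past the floor, so this count says little. Those 3 were Tmprss4, a serine protease gene, at 8.23 on the impaired array and 7.58 on the wildtype array, Fxyd6 at 8.57 and 8.46 in the same order, and Jaml, an adhesion molecule gene, at 11.42 on the impaired array and 11.86 on the wildtype array. Cd4, whose regulatory sequences drive the transgene, was at 13.18 on the impaired array and 13.14 on the wildtype array, a difference of 0.04 (chosen after its value was seen).

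The genes whose pair of values lay nearest to that of Il10ra were still some way from it. By Euclidean distance over the 2 samples they were Clca3b (0.62 log2 units away, 11.75 on the impaired array and 10.22 on the wildtype array), Gm11545 (0.77 away) and Atp1b1, a subunit of the sodium pump (0.83 away). For Il10 the nearest were Gnb1, a G protein subunit (0.011 away), Cd52, a lymphocyte surface glycoprotein (0.030 away), and Arf1, a small GTPase (0.049 away). With 2 samples such likeness carries only a level and a difference.

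Il10rb, the shared beta chain, was at 10.30 on the impaired array and 10.13 on the wildtype array. Its difference of 0.16 lay near the middle of all genes past the floor, of which 48.4% had a smaller absolute difference. The receptor's 2 chains therefore differed by unequal amounts between the samples, 5.20-fold for Il10ra and 1.12-fold for Il10rb. Il10rb lies on chromosome 16 among other class II cytokine receptors, the family of receptors for IL-10-like cytokines and interferons. Its neighbour Ifnar2, a chain of the type I interferon receptor, was at 10.93 on the impaired array and 11.12 on the wildtype array. Ifnar1, the other chain of that receptor, was at 9.85 in both samples. Ifngr2, the signalling chain of the interferon gamma receptor and the next gene but one, was at 10.57 on the impaired array and 9.64 on the wildtype array, a difference of 0.93.

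The ligand itself was equal in the samples. Il10 was at 12.92 on the impaired array and 12.94 on the wildtype array, a difference of -0.02, and 5.38% of genes past the floor had a smaller absolute difference. The sort is not described, so a sort on IL-10 may have set this closeness. Il10 lies on chromosome 1 in a cluster with Il19, Il20 and Il24. Il19, a cytokine of myeloid and epithelial cells, was at 6.16 on the impaired array and 6.07 on the wildtype array. Il24 was at 5.53 on the impaired array and 5.47 on the wildtype array, and Il20, not a member, at 5.84 on the impaired array and 5.95 on the wildtype array. All 3 lay under the floor in both samples. On the other side of Il10, Mapkapk2, a kinase downstream of p38, differed by -0.31. Of the 68 measured neighbours of the 10 members, 42 passed the floor and 1 reached 2-fold, beside 1.65% of all genes past the floor. That neighbour was Pigr, the epithelial receptor that exports IgA, at 11.70 on the impaired array and 10.57 on the wildtype array.

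**Figure D2:**
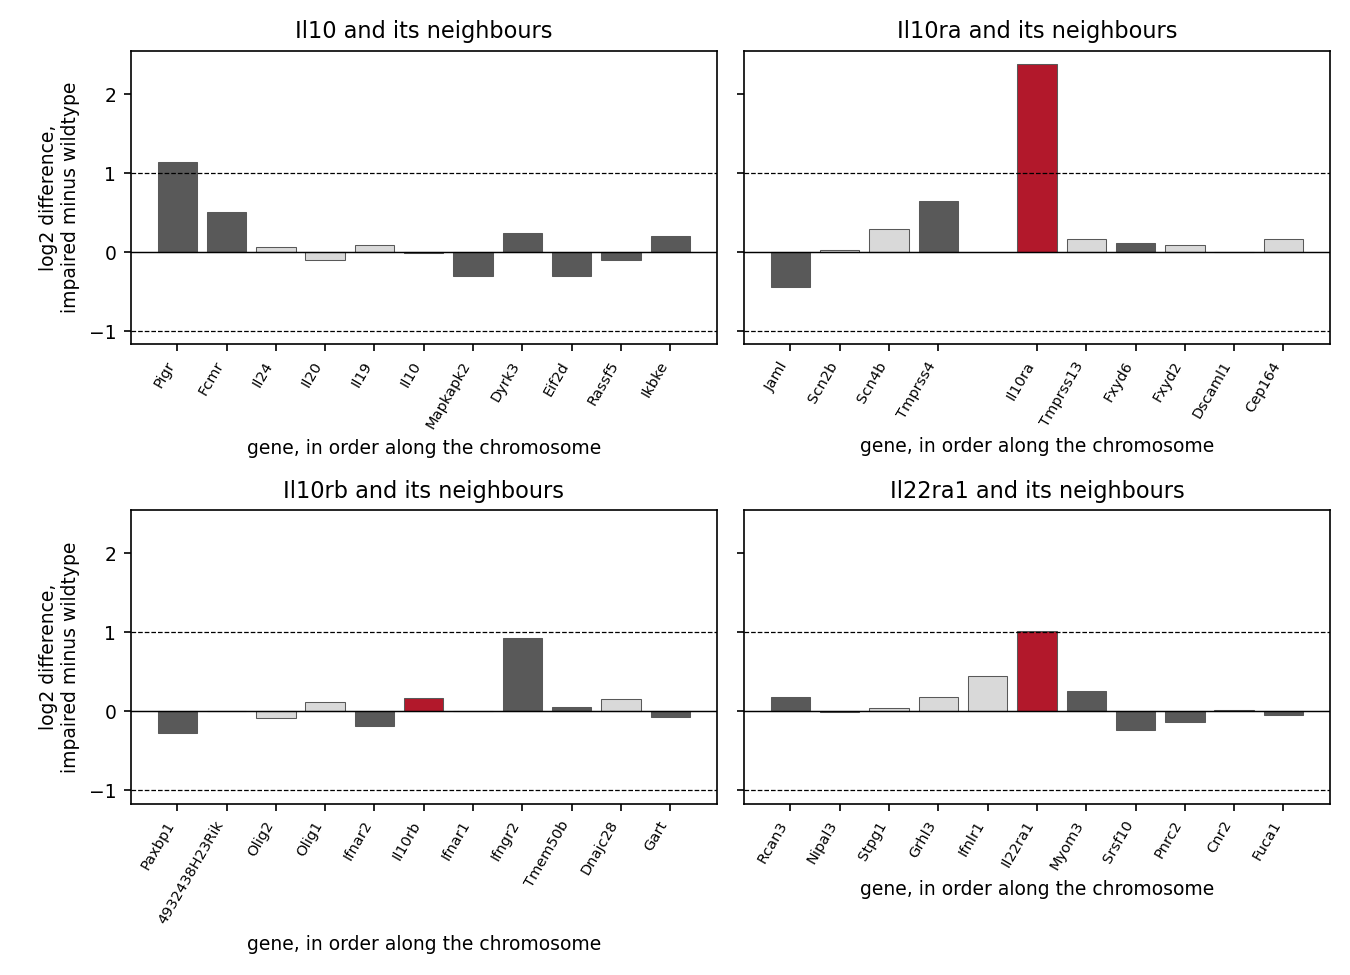
Log2 difference (impaired minus wildtype) of Il10, Il10ra, Il10rb and Il22ra1 (red) and of the measured genes among the 5 protein-coding genes on each side, in chromosome order without scale, with neighbours past the floor in dark grey and those under it in light grey. Dashed lines mark 2-fold. Il10ra reaches 2.38, above 99.97% of genes past the floor, and its 3 neighbours past the floor lie between -0.44 and 0.65. Pigr in the Il10 panel is the one neighbour beyond 2-fold, at 1.14.

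Il22ra1 encodes the signalling chain that pairs with IL-10RB to receive IL-22 and with IL-20RB to receive IL-20 and IL-24. Its brighter probe set was at 9.93 on the impaired array and 8.91 on the wildtype array, a difference of 1.02, just past the 2-fold rule. Its second probe set was at 8.21 on the impaired array and 7.47 on the wildtype array, a difference of 0.75. The probe sets thus gave the same direction, and the second alone would not have been counted. The gene also fell short of 2-fold when its probe sets were averaged (0.88) and when an offset of 32 was added on the linear scale. Their differences lay 0.27 apart, against a median of 0.19 over the 575 genes with several probe sets past the floor. Within the enterocyte marker list, which had a median difference of 0.99, 8 of the 17 genes past the floor had a larger difference than Il22ra1 and 9 a smaller one. The part of epithelial cells in the Il22ra1 difference was not tested.

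The other chains of these receptors were dim. Il20rb, the beta chain of the IL-20 receptors, was at 7.77 in both samples by its brightest probe set. Its other probe sets differed by 0.14, at 7.07 on the impaired array and 6.94 on the wildtype array, and by -0.12, at 6.82 on the impaired array and 6.94 on the wildtype array. The 3 probe sets of Il20rb gave differences of 0 and of both signs, so no direction can be given. Il20ra, the alpha chain of the IL-20 receptor, was at 5.45 on the impaired array and 5.53 on the wildtype array. Il22ra2, which encodes a soluble protein that binds IL-22 and blocks it, was at 5.21 on the impaired array and 5.30 on the wildtype array. The 4 members under the floor differed by at most 0.10 in size. As a gauge of background, 1027 olfactory receptor genes, which T cells are not known to use, had a median of 5.58 on the impaired array and 5.95 on the wildtype array. Il24, Il20ra and Il22ra2 were each dimmer than that median in both samples, and Il19 was brighter than 78.3% of the olfactory receptor genes on the impaired array and 55.8% on the wildtype array. Neither an absence nor a difference of these 4 transcripts can be read from such signals. Of the olfactory receptor genes 9.64% passed the floor, so passing it does not by itself show that a transcript is present.

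Bcl3 encodes an atypical inhibitor of NF-kB that IL-10 is known to induce in macrophages through STAT3. It was at 11.67 on the impaired array and 11.57 on the wildtype array, a difference of 0.10. Genes of NF-kB subunits and of NF-kB inhibitors were close too. Of the 10 listed, 9 were measured and passed the floor, and Nfkb1, a subunit gene, had no probe set of its own. Among the 9, 6 were above 0, 3 were below and 0 reached 2-fold. Over all genes past the floor 1.65% did. The list's median was 0.13, against 0.0025 over all genes. It was 0.003 over the list's genes past a stricter floor of 8.86, the 75th percentile of probe sets. The largest differences were those of the inhibitor gene Nfkbie (0.26), the subunit gene Nfkb2 (0.25) and the inhibitor gene Nfkbia (0.19), and the smallest was that of Nfkbib (0.003).

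Sequence upstream of the start site is shown for Il22ra1, the counted member with an entry in the RefSeq promoter table (GRCm38.p6), for Bcl3, the STAT3-induced member, and for Il19, the member with a STAT-type motif. The table held 5 of the 10 members, the others being Il20ra and Il20rb. Each line gives the 250 bases before the annotated start, 5′ to 3′ on the gene's strand, with capitals for matches to TTCNNNGAA, a palindromic STAT-type motif that reads alike on both strands. The windows are chr4:135727909-135728158 on the plus strand for Il22ra1, chr7:19822756-19823005 on the minus strand for Bcl3 and chr1:130940116-130940365 on the minus strand for Il19.
Il22ra1: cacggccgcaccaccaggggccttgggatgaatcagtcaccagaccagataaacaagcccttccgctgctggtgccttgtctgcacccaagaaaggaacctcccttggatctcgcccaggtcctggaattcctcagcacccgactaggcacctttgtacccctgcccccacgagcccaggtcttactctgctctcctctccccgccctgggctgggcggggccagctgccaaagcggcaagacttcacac
Bcl3: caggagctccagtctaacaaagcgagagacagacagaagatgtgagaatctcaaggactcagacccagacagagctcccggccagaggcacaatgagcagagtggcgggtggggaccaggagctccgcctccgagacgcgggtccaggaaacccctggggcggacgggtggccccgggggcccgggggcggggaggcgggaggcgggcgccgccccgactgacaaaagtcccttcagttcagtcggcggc
Il19: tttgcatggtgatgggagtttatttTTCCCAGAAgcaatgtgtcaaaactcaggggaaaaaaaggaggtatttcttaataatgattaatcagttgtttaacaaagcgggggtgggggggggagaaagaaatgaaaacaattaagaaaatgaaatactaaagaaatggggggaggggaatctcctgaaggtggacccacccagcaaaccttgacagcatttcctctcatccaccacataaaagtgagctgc

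Il19 held 1 match, beginning 225 bases before the start, and Il22ra1, Bcl3, Il20ra and Il20rb held 0. Of the 32851 promoters in the table, 7.02% held at least 1 match in this window. The match is a description of letters, and its gene gave a signal under the floor in both samples. The windows of Bcl3 and Il22ra1 had GC contents of 67.6% and 62.4%, and that of Il19 one of 42.0%.

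The other class II cytokine receptors were measured beside the members. Of the 6 genes, 5 passed the floor, with 2 above 0, 2 below, Ifnar1 equal and 0 at 2-fold, and a median of 0. Over all genes past the floor 1.65% reached 2-fold. The 2 above 0 were Ifngr2 (0.93) and F3, which encodes tissue factor, at 7.04 on the impaired array and 6.13 on the wildtype array (0.91). F3 passed the floor on the impaired array alone, so the size of its difference is uncertain. Both exceeded a 1.5-fold rule, which 5.89% of all genes past the floor did in this direction and 7.39% in either direction. The members past that rule were the same 2, Il10ra and Il22ra1, as past 2-fold. Ifngr1, the ligand-binding chain of the interferon gamma receptor and a neighbour of Il22ra2 and Il20ra on chromosome 10, differed by -0.11. Ifnlr1, the interferon lambda receptor chain that lies next to Il22ra1 on chromosome 4, was under the floor, at 6.63 on the impaired array and 6.18 on the wildtype array. Of the 4 other ligands listed, 2 had a probe set of their own, and 1 of these passed the floor, Ifnl2, an interferon lambda, at 8.67 on the impaired array and 8.51 on the wildtype array.

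Measured genes of JAK and STAT signalling differed by less than 2-fold in every case, as did all but 1.65% of genes past the floor. Jak1 was at 12.37 on the impaired array and 12.57 on the wildtype array (-0.20), Tyk2 at 9.45 on the impaired array and 9.23 on the wildtype array (0.22), and Stat3 at 12.40 on the impaired array and 12.54 on the wildtype array (-0.14). The list of 17 JAK, STAT and feedback genes also takes in Il6st, a receptor chain (-0.24), and Btrc, a ubiquitin ligase subunit (-0.25). Of the 17 genes, 16 were measured and passed the floor. Among them 6 were above 0, 10 were below and 0 reached 2-fold, with a median of -0.13. Over all genes past the floor 50.2% were above 0 and 49.5% below. The largest differences were those of the feedback inhibitor genes Socs3 (0.41) and Socs2 (0.38) and of Ptpn2, a phosphatase that acts on JAK and STAT proteins (-0.25). Stat5a had the smallest, at 0.05.

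**Figure D3:**
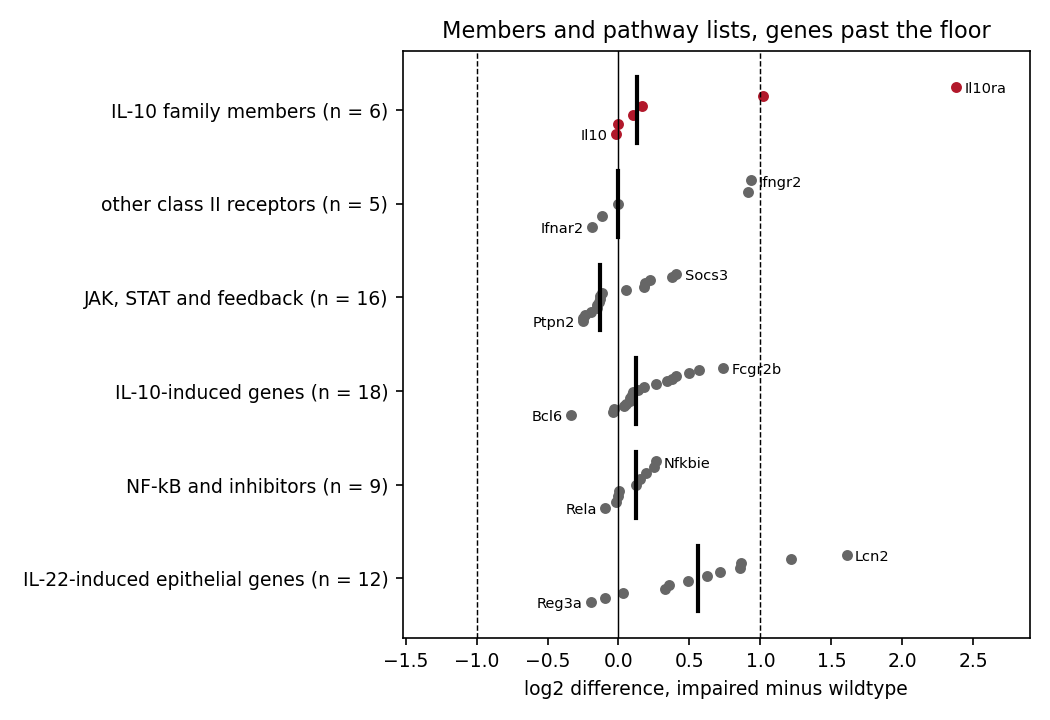
Log2 difference (impaired minus wildtype) of each gene past the floor among the 6 members (red) and in 5 pathway lists (grey), with each list's median as a black bar, the highest and lowest gene named and dashed lines at 2-fold. Medians of the JAK, STAT and feedback list (-0.13), the IL-10-induced list (0.12) and the NF-kB list (0.13) lie close to 0, and that of the IL-22-induced epithelial list lies at 0.56.

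Genes known to be induced by IL-10, mostly from work on macrophages, were not lower as a group in the impaired sample. Of the 18 past the floor, 15 were above 0, 3 were below and 0 reached 2-fold, with a median of 0.12. Over all genes past the floor 50.2% were above 0 and 1.65% reached 2-fold. In the list the largest differences were those of Fcgr2b, the inhibitory Fc receptor (0.74), Ier3, a stress-response gene (0.57), and Arid5a, an RNA-binding protein (0.50). Hmox1, heme oxygenase, had the smallest size, at -0.04. Fcgr2b is carried by B cells and myeloid cells, and its wildtype value of 6.17 lay under the floor. Marker lists of such cells did not all point the same way. The neutrophil list had a median difference of 1.80, but 6 counted macrophage and monocyte genes ran from -0.55 to 1.78. Itgax and Xcr1, the dendritic cell genes counted, differed by 0.34 and -0.03. Only 2 of 7 measured B cell genes reached the floor, Blnk (0.99) and Cd79b (0.60). The part of B cells and myeloid cells in this result was not tested.

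Epithelial genes known to respond to IL-22, the ligand of the Il22ra1 chain, were mostly brighter in the impaired sample. Of the 12 past the floor, 10 were above 0, 2 were below and 2 reached 2-fold, with a median of 0.56. Over all genes past the floor 50.2% were above 0 and 1.65% reached 2-fold, with a median of 0.0025. The 2 list genes at 2-fold were Lcn2, an iron-sequestering antimicrobial protein, at 11.40 on the impaired array and 9.79 on the wildtype array, and Nos2, inducible nitric oxide synthase, at 8.85 on the impaired array and 7.64 on the wildtype array. Tifa, an adaptor of innate signalling, differed by 0.87, and Fut2, a fucosyltransferase of the epithelial surface, by 0.03. Steap4 passed the floor on the impaired array alone, so it could only count as above 0. Saa1 and Saa2 lay under the floor in both samples, with differences of 0.07 and 0.10. Lcn2 is also a neutrophil gene and stands in that marker list too. Enterocyte markers had a higher median, 0.99, and the part of epithelial cell content in this result was not tested.

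**Figure D4:**
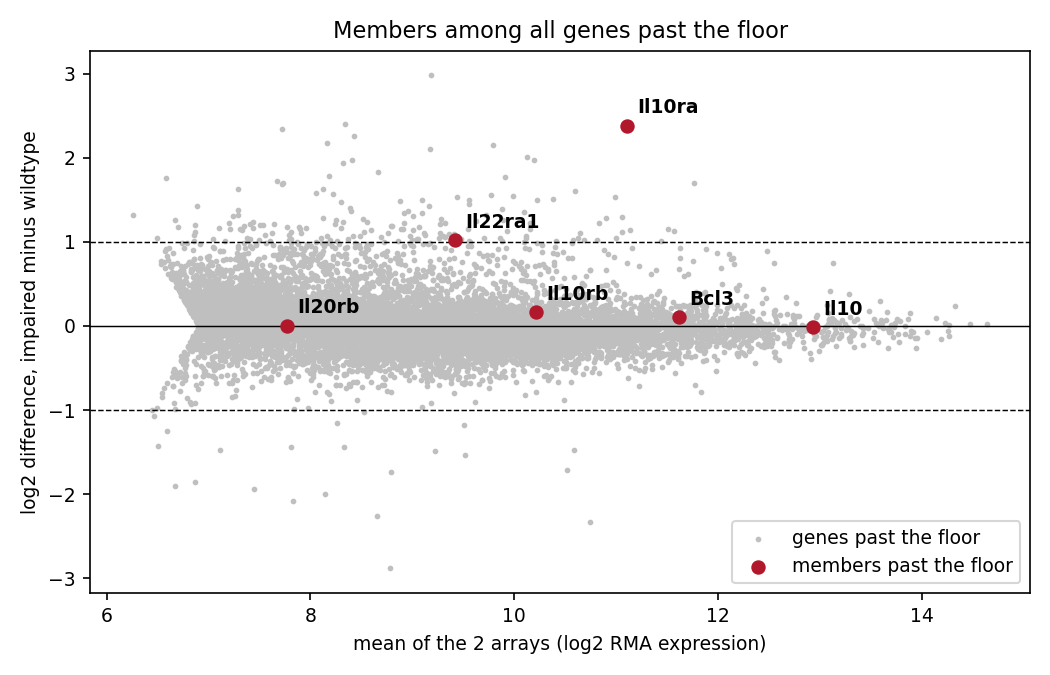
Log2 difference (impaired minus wildtype) against the mean of both arrays for the 11124 genes past the floor (grey) and the 6 members past it (red), with dashed lines at 2-fold. Il10ra lies at 2.38, far above genes of similar brightness, Il22ra1 at 1.02 sits on the 2-fold line, and Il10, Il10rb, Il20rb and Bcl3 lie near 0.

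Markers of the labelled cell type were bright in both samples, and so were some genes of CD8 and gamma-delta T cells given below. Brightness alone therefore does not settle which T cells were present. All 13 T cell genes measured passed the floor, with levels of 10.93 to 13.57 on the impaired array and 10.95 to 13.66 on the wildtype array and a median difference of -0.01. Cd3e and Cd3g, chains of the T cell receptor complex, differed by -0.01 and -0.19, and Thy1, a surface glycoprotein, by 0.24. All 14 TR1 genes, the member Il10 among them, passed the floor, with a median of -0.05 and 0 at 2-fold. Over all genes past the floor 1.65% reached 2-fold, so this count of 0 says little. The list held Gzmb, granzyme B (14.11 on the impaired array, 14.27 on the wildtype array), Ctla4 (13.27 and 13.33 in the same order) and Ahr (difference 0.24). Most measured markers of neutrophils and of epithelial cells, which carry the IL-10 and the IL-22 receptor chains, were brighter in the impaired sample.

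Of the 10 neutrophil genes past the floor, 10 were brighter on the impaired array and 8 reached 2-fold, with a median of 1.80. Over all genes past the floor 50.2% were above 0 and 1.46% were at least 2-fold brighter. The other 2 of the 12 measured, Camp (difference 0.13) and Csf3r (0.66), lay under the floor in both samples. Mmp8, Ltf and Cxcr2 passed the floor on the impaired array alone, so they could only count as brighter there and their sizes are uncertain. Retnlg, a secreted granulocyte protein, was at 9.58 on the impaired array and 7.74 on the wildtype array, and Lcn2 differed by 1.61. Mmp8, neutrophil collagenase, had the largest difference (2.35), with 8.89 on the impaired array and a wildtype signal under the floor. The summed linear signal of the list, on the log2 scale, was 12.81 on the impaired array and 11.16 on the wildtype array. Lcn2, which also stands in the IL-22-induced epithelial list, added most to this sum on both arrays. Macrophage and monocyte genes were mixed: 6 of 12 passed the floor, 5 of them above 0, and Lyz2, lysozyme, differed by 1.78, Cd68, a lysosomal protein, by 0.09 and Cybb, an oxidase subunit, by -0.55. Cd14 and C1qa passed it on the impaired array alone. The summed signal of the macrophage and monocyte list was 12.03 on the impaired array and 12.00 on the wildtype array on the log2 scale. Csf1r and Adgre1, which define macrophages, lay under the floor in both samples. Of 7 B cell genes measured, 2 passed the floor, Blnk (0.99) and Cd79b (0.60), while Cd79a, Ms4a1 and Pax5 lay under it in both samples. Macrophages and B cells can carry Il10ra too, and their part in its difference was likewise not tested.

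The enterocyte list had 17 genes past the floor, all of them brighter in the impaired sample and 8 by at least 2-fold, with a median of 0.99. Over all genes past the floor 50.2% were above 0 and 1.46% were at least 2-fold brighter. Sis, sucrase-isomaltase, was at 10.80 on the impaired array and 9.02 on the wildtype array, Krt8, a keratin, at 12.55 on the impaired array and 11.74 on the wildtype array, and Apoa4, an apolipoprotein, at 12.29 on the impaired array and 11.80 on the wildtype array. Epithelial signal was thus strong in both samples. The list's summed signal was 15.28 on the impaired array and 14.41 on the wildtype array on the log2 scale. All 11 goblet and Paneth cell genes were brighter too, with a median of 0.86. Zg16, a lectin of secretory granules, was at 13.74 on the impaired array and 13.44 on the wildtype array (0.30), Tff3, a trefoil peptide, differed by 0.75 and Ang4, an antimicrobial angiogenin, by 1.70. Ang4 and Itln1 passed the floor on the impaired array alone. Of the stromal and endothelial list, 6 genes passed the floor with a median of 0.28, 3 of them (Dcn, Col3a1 and Pdgfrb) on the impaired array alone. Pecam1, an endothelial adhesion molecule, differed by 0.40 and Col1a1, a collagen chain, by 0.05, while Dcn, decorin, stood at 7.29 on the impaired array and at 6.11, under the floor, on the wildtype array. The 2 dendritic cell genes past the floor, Itgax and Xcr1, differed by 0.34 and -0.03. Of the 5 genes of CD8 T cells and gamma-delta T cells, 4 were below 0, 1 was above and 0 reached 2-fold, with a median of -0.39. Over all genes past the floor 1.65% reached 2-fold, so for 5 genes a count of 0 says little. Trgv1, a gamma-delta T cell receptor segment, was at 12.71 on the impaired array and 13.11 on the wildtype array (-0.40). Cd8b1, a CD8 chain, differed by -0.09 and Sox13, a factor of gamma-delta T cells, by 0.24. Cd8a, the other CD8 chain, had the lowest difference, at 11.42 on the impaired array and 12.12 on the wildtype array.

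**Figure D5:**
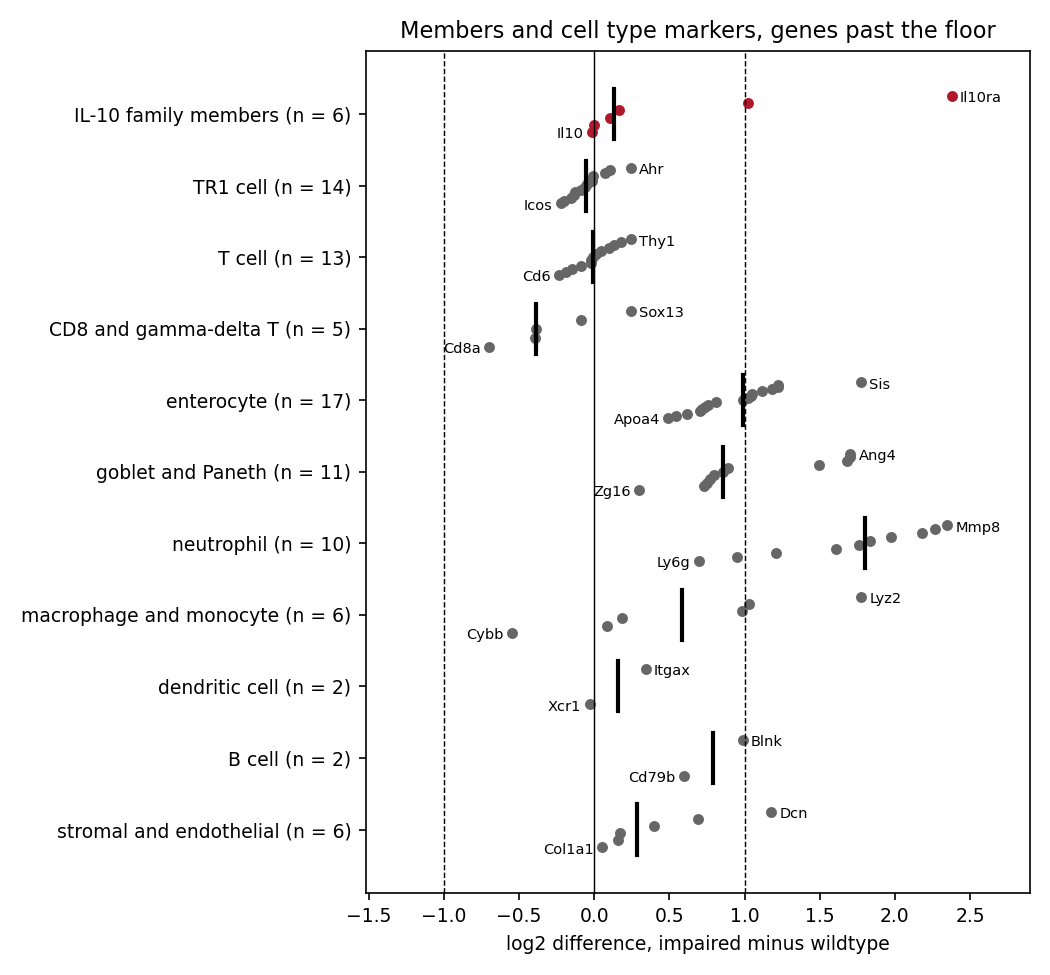
Log2 difference (impaired minus wildtype) of the 6 members past the floor (red) and of marker genes of 10 cell types past the floor (grey), with each median as a black bar, the highest and lowest gene named and dashed lines at 2-fold. TR1 and T cell markers centre on -0.05 and -0.01, enterocyte markers on 0.99 and neutrophil markers on 1.80. Of the 10 neutrophil genes, 3 passed the floor on the impaired array alone.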

How the data were processed

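RNA of 1 impaired and 1 wildtype sample was hybridised to an Affymetrix array. The deposited log2 values were made by the authors with affy and RMA, per the submitters' processing notes, which corrects background, normalizes between arrays and summarises probe sets; their versions and the genome build are not stated there. The table holds 34760 probe sets, with medians of 6.92 (impaired) and 6.89 (wildtype). Of these, 21640 had 1 symbol in GEO's platform annotation, 1321 several and 11799 none listed; 21553 matched RefSeq by Entrez identifier, changing 0 symbols. From these values log2 differences were computed, the probe set with the highest mean standing for a gene, with the floor at the median of all probe sets and a 2-fold rule. With 1 array per genotype no test was possible, and the number of arrays limits the precision. Members and lists were chosen with earlier results of these data known. Named from each pathway list are the 3 largest absolute differences and the smallest, with Jak1, Tyk2, Stat3 and Socs3, and from each marker list the 2 brightest genes and the largest difference; other genes were named after their values were seen, as was the olfactory receptor gauge. The counting and centring steps were tested on simulated data. Alternatives were loess centring (span 0.3), an offset of 32, the mean of probe sets, median centring, other floors and a 1.5-fold rule. Values came from statsmodels 0.14.6, pandas 2.3.3 and numpy 2.4.6 under Python 3.11.15, and plots from matplotlib 3.10.9.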

Additional observations from a re-analysis of the deposited data

Results flagged for a closer look

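IL-22, a ligand of the Il22ra1 and Il10rb chains, is encoded in some mouse strains by a pair of near-identical genes, Il22 and Iltifb, and the comparisons above left out the probe sets whose annotation joins both. Of these 2 probe sets, the first was at 9.74 on the impaired array and 7.75 on the wildtype array, a difference of 1.99 (3.97-fold), which 9 of the 11124 genes past the floor equalled or exceeded. The second was at 9.87 on the impaired array and 8.56 on the wildtype array, a difference of 1.30 (2.47-fold). A further probe set annotated to Iltifb alone was at 6.92 on the impaired array and 6.15 on the wildtype array, a difference of 0.77. All 3 probe sets were brighter in the impaired sample, and the signals cannot be assigned to either gene. The 2 joint probe sets were measured on the same arrays and were left out above by the rule of 1 symbol per probe set. There is 1 array per genotype, and no test was made.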

How the results depend on the processing

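Il10ra differed by 2.34 to 2.44 over the alternatives; it has 1 probe set, so averaging probe sets could not change it, and median centring moves every gene by 0.0025, so loess centring and an offset of 32 on the linear scale are the settings that bear on it. Il22ra1 lay between 0.88 and 1.08 and its call was lost under 2 alternatives: the count of members past 2-fold was 1 with the offset and 1 with the mean of probe sets, against 2 otherwise, including without a floor, with a floor of 8.86, the 75th percentile of all probe sets, and with a 1.5-fold rule. The other 8 members moved by less than 0.25, the scaled median absolute deviation of all differences, and Il10 (-0.02 to 0.02) and Il20rb (-0.06 to 0.005) changed sign. The share of all genes past the rule was 1.02% without a floor and 7.39% with the 1.5-fold rule, under which 2 other class II receptors, 1 IL-10-induced and 6 IL-22-induced genes were counted; the stricter floor left 1 of the last. The median of the other class II receptors lay between -0.06 and 0.23, that of the NF-kB genes between 0.003 (stricter floor) and 0.13, and those of the other pathway lists kept their sign. No paired analysis was possible because each genotype has 1 array.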
